A study of Mus musculus with 6 samples.

Results

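The 10 hypoxia response genes described here are Hif1a, Egln1, Egln3, Vegfa, Adm, Pdk1, Bnip3, Ndrg1, P4ha1 and P4ha2, out of 18193 genes with a probe set of their own on the array. They were chosen by name, as the transcription factor subunit of the oxygen response, its hydroxylases and widely used target genes. Earlier results of these data were known at that choice and at the choice of the related lists below. All probe sets carrying the symbols of the 10 genes were taken, which gave 25 of 45101. The data are 6 Affymetrix GeneChip arrays of mouse embryonic stem (ES) cells differentiating toward paraxial mesoderm, the tissue that forms the somites. The cells are of the E14 line, on the 129P2/OlaHsd background, and carry a Venus reporter of Msgn1, which encodes a presomitic mesoderm transcription factor. The day 3 and the day 4 group each hold 3 samples titled as biological replicates. Both groups were grown as a monolayer in DMEM with 15% fetal bovine serum, 0.5% DMSO, R-spondin3, which strengthens Wnt signals, at 10 ng/mL and the BMP inhibitor Noggin at 200 ng/mL, and the labels set them apart by the day at which Venus-positive cells were sorted. They name Trizol or a column kit for the RNA without saying which sample had which, so extraction could not be compared between the days. The sources used here do not say whether the reporter line is a single clone or whether replicates came from separate cultures, so p-values measure the spread between these samples. The labels name CO2 and no oxygen level, and no sample was grown under a second oxygen level, so the comparison is one of days in culture. RNA was measured, and not the HIF proteins, whose amount is set largely after translation.

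In cells with enough oxygen, the prolyl hydroxylases encoded by Egln1, Egln2 and Egln3 use it to hydroxylate the alpha subunits of hypoxia-inducible factor (HIF), which the von Hippel-Lindau protein (Vhl) then marks for destruction. When oxygen is scarce the alpha subunit persists, pairs with Arnt and switches on genes that act on blood supply, energy metabolism and matrix. Egln1 and Egln3 are also HIF targets themselves and so form a negative feedback. Early mouse embryos develop at low oxygen, and Hif1a is needed for their vessels and heart.

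HIF binds a short core, ACGTG or GCGTG, and the bases just before the RefSeq starts of the genes are shown for those whose signal changed, so that these cores can be seen in place. RefSeq start windows on GRCm38.p6 were matched for 9 of the 10 genes by gene ID. Ndrg1 was not matched. The sequences run from 5′ to 3′ along the strand of the gene and end at the base before the start, and capitals mark ACGTG and GCGTG on either strand. On the opposite strand these read CACGT and CACGC, and the overlapping pair CACGTG counts as 2 matches.
Hif1a, chr12:73907617-73907866, plus strand: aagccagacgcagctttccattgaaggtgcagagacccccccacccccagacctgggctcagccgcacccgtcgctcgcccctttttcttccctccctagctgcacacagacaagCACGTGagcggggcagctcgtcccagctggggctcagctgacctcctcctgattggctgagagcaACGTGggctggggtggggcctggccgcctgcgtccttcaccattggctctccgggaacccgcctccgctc
Egln1, chr8:124949255-124949504, minus strand: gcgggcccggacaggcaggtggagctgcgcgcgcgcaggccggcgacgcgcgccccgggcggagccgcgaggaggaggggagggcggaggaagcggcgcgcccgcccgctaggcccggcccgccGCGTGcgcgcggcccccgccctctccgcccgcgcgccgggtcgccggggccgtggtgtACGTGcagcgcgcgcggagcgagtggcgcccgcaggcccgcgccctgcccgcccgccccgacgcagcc
Egln3, chr12:54203875-54204124, minus strand: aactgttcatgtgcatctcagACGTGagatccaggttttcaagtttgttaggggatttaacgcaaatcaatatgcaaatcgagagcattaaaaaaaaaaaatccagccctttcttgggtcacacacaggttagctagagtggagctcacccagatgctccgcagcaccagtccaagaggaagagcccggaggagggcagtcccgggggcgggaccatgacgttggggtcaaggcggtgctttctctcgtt
Vegfa, chr17:46032378-46032627, minus strand: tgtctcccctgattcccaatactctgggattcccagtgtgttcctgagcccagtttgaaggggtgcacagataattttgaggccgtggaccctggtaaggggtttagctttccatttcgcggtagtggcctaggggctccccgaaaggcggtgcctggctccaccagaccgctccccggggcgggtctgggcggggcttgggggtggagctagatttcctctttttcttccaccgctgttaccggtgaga

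The window of Hif1a held 3 matches, that of Egln1 held 2 and that of Egln3 held 1. This Vegfa window held 0, and a second RefSeq start of Vegfa, which lies inside the longer gene model, had 2 matches in its window. The Hif1a window also lies within the span of a longer RefSeq gene model. Of the genes whose signal did not pass the test, Bnip3 had 5 matches, P4ha1 and P4ha2 had 3 each, Adm had 2, and Pdk1 had 1 before one start and 0 before another. In all, 9 of the 11 windows of these genes held a match, against 38.6% of the 32851 RefSeq windows of the same length. The windows of these genes were also richer in G and C, with a median of 64.0% against 52.4% over all windows, and the part of base composition in the matches was not tested. A match is a run of letters and not a shown binding site, and its absence says only that the letters are not in that window.

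Signals are the deposited values, on a linear scale and in arbitrary units, and levels are set against each other only within a probe set, apart from ratios of a pair of genes and sums over marker lists, which are compared between arrays. A gene with several probe sets is represented by the brightest over all arrays. A change is a log2 difference, day 4 minus day 3, given with its standard error (SE), and adjusted p-values come from limma over the 12285 genes above a filter on dim probe sets, which is a mean signal of 13.5 over all 6 arrays, taken on the log2 scale. A probe set under the filter can thus exceed that signal on single arrays or on 1 day. A gene was called at an adjusted p under 0.05. All 10 genes were tested, and 20 of their 25 probe sets were above the filter.

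By the brightest probe sets, day 4 cells had more Vegfa RNA than day 3 cells. By the same measure they had less RNA of Hif1a and of the oxygen-sensing hydroxylases Egln1 and Egln3. The calls of Vegfa and Egln3 held in all 6 fits that left out an array, and those of Hif1a and Egln1 in 3 each. With the mean over probe sets, Hif1a and Egln3 did not pass. Of the 10 genes, 1 was higher, 3 were lower and 6 did not pass, so that 4 of 10 were called, against 22.2% of all genes tested (11.5% higher and 10.7% lower). The arrays of the days did not overlap for the same 4 genes, 3 lower and 1 higher, whereas 41.4% of all genes tested had arrays that did not overlap (20.6% lower and 20.7% higher). The median change of the 10 genes was -0.15, against -0.01 over all genes tested, and the median absolute change was 0.26 in both. Without day 4 replicate 1 the called genes were 2 higher and 3 lower, against 28.7% of all genes. Without day 3 replicate 1 there were 1 higher and 1 lower, and without any other array 1 higher and 2 lower. In sorted bulk samples, fewer cells of a type and less RNA per cell cannot be told apart.

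**Figure D1:**
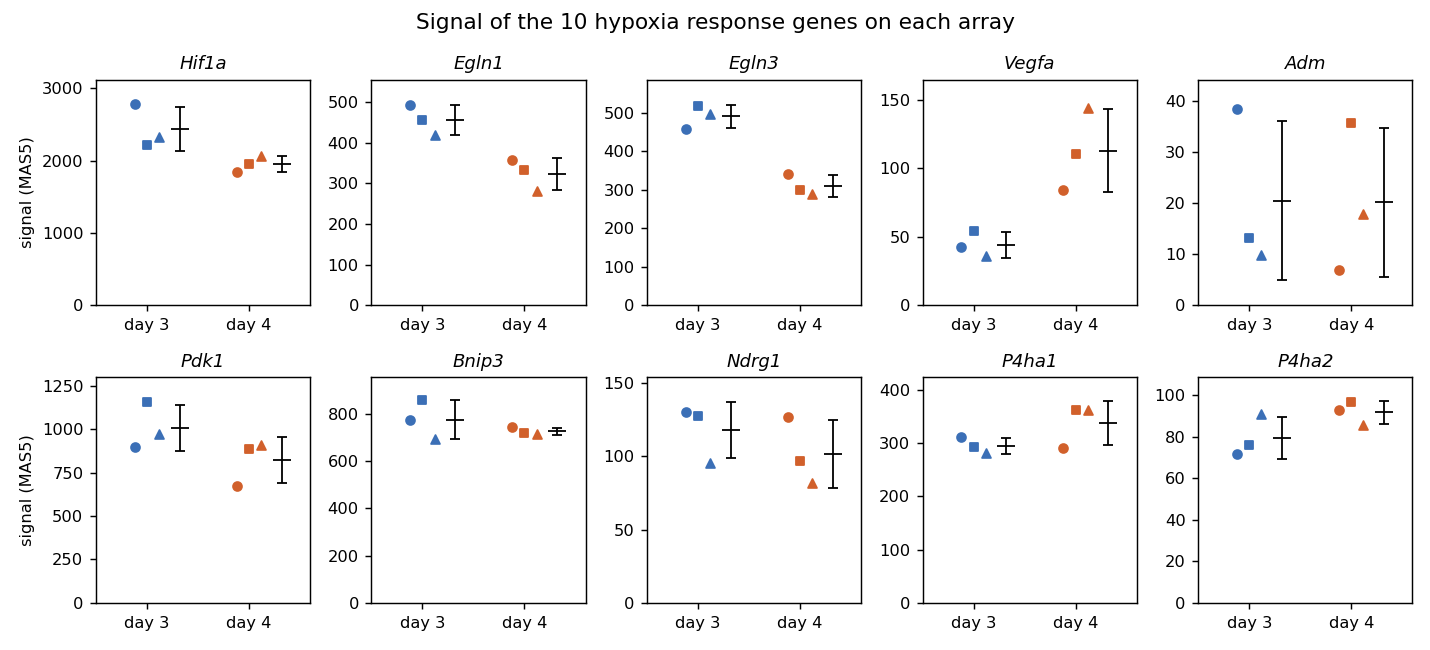
Deposited MAS5 signal (linear axis from 0) of the representative probe set of each of the 10 genes, by array. Circles, squares and triangles are replicates 1, 2 and 3, blue is day 3 and orange day 4, and the black bars give the mean ± SD of 3 arrays. Hif1a, Egln1 and Egln3 lie lower on all day 4 arrays, Vegfa lies higher, and the days overlap for the other 6 genes.

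Several facts of the series touch these values. Day 4 replicate 1 had a 3′ to 5′ signal ratio of 14.0 in the Gapdh control probe sets, where the other arrays had 2.43 to 3.19, and of 6.71 in those of Actb, where they had 2.77 to 3.84, so results are also given without it where it matters. All 7 markers of presomitic mesoderm were above the filter, which is a mean over both days, Rspo3 being higher and Msgn1 lower at day 4. The other 5 did not pass, and the median change of the 7 was 0.22. The summed signal of the 7 was 2929 to 3135 at day 3 and 4555 to 4839 at day 4. Such a sum on the linear scale weighs the brightest probe sets most, here and in the lists that follow. Markers of other cell types the gate could hold moved as well. The summed signal of 12 endothelial and blood genes was 679 to 728 at day 3 and 398 to 496 at day 4, and 0 of 7 tested were higher and 3 lower. Pecam1, Tek, Tie1, Tal1 and Hba-x lay under the filter. The summed signal of 9 cardiac and lateral plate genes was 478 to 511 at day 3 and 962 to 1027 at day 4, and 4 of 9 tested were higher and 0 lower. The 10 endoderm genes summed to 724 to 762 and 496 to 594 (1 higher and 3 lower of 7 tested), the 8 neural genes to 199 to 228 and 122 to 156 (0 and 1 of 4), and the 9 genes of undifferentiated ES cells to 989 to 1140 and 883 to 962 (1 and 2 of 8). With an array left out, the endoderm count was 0 higher, except 2 without day 4 replicate 1, and the neural count was 0 lower, except 1 without day 4 replicate 1. The ES cell count was 1 lower without replicate 2 or 3 of either day. Leaving out an array gave 3 higher in the cardiac and lateral plate list, except 4 without day 4 replicate 1. The endothelial and blood count was 2 lower without day 3 replicate 1 or 2. Of all genes tested, 11.5% were higher and 10.7% lower. The lists are not separate, as Sox17 is in both the endothelial and the endoderm list and Gata4 in both the endoderm and the cardiac list. Cxcr4 of the endoderm list is also in the wider list of HIF targets below. The part of these cell types in the results below was not tested.

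Hif1a encodes the alpha subunit that is stabilised when oxygen is low. Its brightest probe set (1427418_a_at) gave signals of 2789, 2212 and 2324 at day 3 and of 1844, 1953 and 2060 at day 4. All day 4 arrays were below all day 3 arrays, although the lowest day 3 array and the highest day 4 array were close. The change was -0.32 ± 0.09, a fall of 1.25-fold (adjusted p = 0.0381), and it was the smallest of the 4 called changes. This call was lost without day 3 replicate 1 (a change of -0.22, adjusted p = 0.0994), day 3 replicate 3 (adjusted p = 0.0824) or day 4 replicate 2 (adjusted p = 0.0903). It was kept without day 4 replicate 1 (adjusted p = 0.0418). When every probe set was tested on its own, its adjusted p was 0.0498. Tested in that way, it did not pass in any fit that left out an array (adjusted p from 0.0535 to 0.126). Nor did it pass with quantile normalization (adjusted p = 0.0580) or median centring (adjusted p = 0.0524).

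The other probe sets of Hif1a did not all follow. In the fit over all probe sets, 1416035_at gave 369, 405 and 351 at day 3 and 257, 239 and 281 at day 4, a fall of 0.53 ± 0.11 (adjusted p = 0.0121). Its days were clearly apart, but this call too was lost without day 3 replicate 2 (adjusted p = 0.0568) or day 4 replicate 2 (adjusted p = 0.0503). The probe set 1448183_a_at, at 274 to 374 and 195 to 381, and the dim 1431981_at, at 11.5 to 25.0 and 20.6 to 24.6, overlapped between the days and did not pass (adjusted p = 0.507 and 0.512). The former passed as lower without day 4 replicate 1 (adjusted p = 0.0302). With the mean over the probe sets, Hif1a did not pass (a change of -0.18, adjusted p = 0.392).

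Egln1 encodes PHD2, the main HIF prolyl hydroxylase of most cells. On day 3 its signals were 494, 456 and 420, and on day 4 they were 357, 332 and 281. Every day 4 array was lower, and the change was -0.50 ± 0.12, or 1.42-fold (adjusted p = 0.0149). The other probe set, 1451110_at, was also lower on all day 4 arrays, at 58.4 to 71.0 against 73.6 to 119, but did not pass on its own (a change of -0.60 ± 0.20, adjusted p = 0.0701; 0.0311 without day 3 replicate 3). The call of Egln1 was lost without day 3 replicate 1 (adjusted p = 0.0606), day 3 replicate 2 (0.0554) or day 4 replicate 3 (0.0504), and its change lay between -0.58 and -0.40 in all 6 fits that left out an array. When every probe set was tested on its own, the brightest, 1423785_at, passed with all arrays (adjusted p = 0.0217). With an array left out it then passed only without day 4 replicate 1 (0.00427, against 0.0525 to 0.0789 in the other fits).

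Egln3 encodes PHD3, the hydroxylase most strongly induced by HIF in many cells. The day 3 arrays read 458, 518 and 496 and the day 4 arrays 341, 299 and 289. The days were well apart, with a mean of 491 ± 30.3 against 310 ± 27.8 (SD, n = 3 arrays), and the change was -0.67 ± 0.11, or 1.59-fold (adjusted p = 0.00228). It was called in all 6 fits that left out an array (adjusted p up to 0.0168). The dimmer probe set 1418648_at, at 30.2 to 56.8 and 29.1 to 50.7, overlapped between the days, with a change of 0.00 ± 0.30 (adjusted p = 0.994). With the mean of both probe sets Egln3 did not pass (a change of -0.33, adjusted p = 0.217).

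The hydroxylase genes were also compared within each array, since the ratio of a pair does not depend on the scaling of the arrays. The log2 ratio of the Egln3 to the Egln1 signal was 0.11 ± 0.19 at day 3 and -0.06 ± 0.10 at day 4 (mean ± SD, n = 3), a difference of -0.16 (exact 2-sided permutation p = 0.3). The smallest p that 3 against 3 arrays allow is 0.1, so this test could not pass a threshold of 0.05. With the mean over the probe sets of each gene the difference was 0.22.

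**Figure D2:**
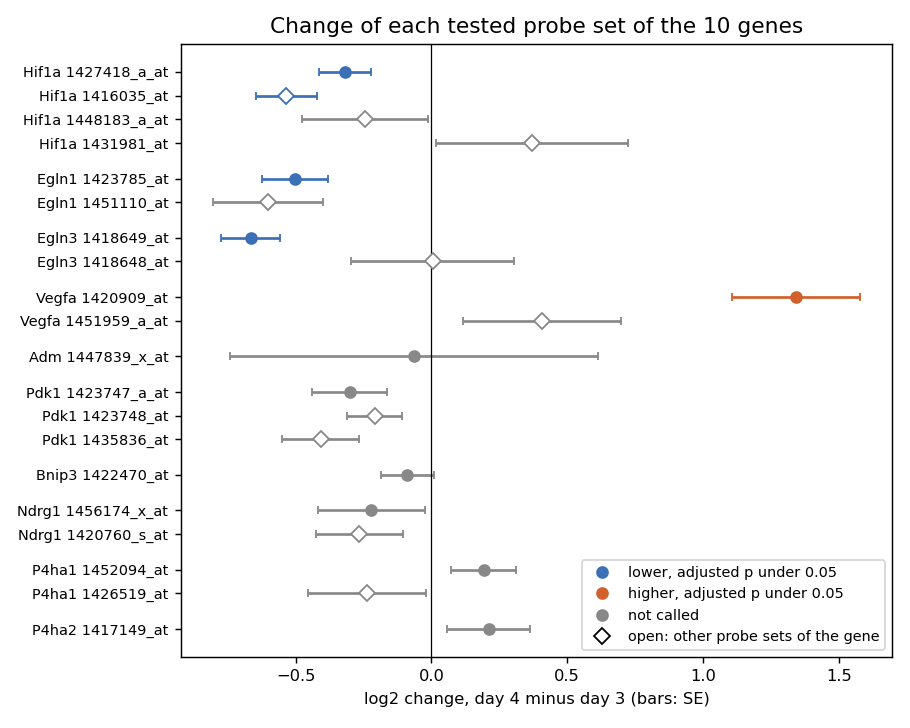
Change of each of the 20 tested probe sets of the 10 genes (log2, day 4 minus day 3), with the SE as bars, from the fit over all probe sets. Filled circles are the representative probe sets and open diamonds the others; blue is lower, orange higher and grey not called. The probe sets of Egln1 and of Pdk1 lie on the same side of 0, while Hif1a and P4ha1 each have a probe set on the other side and the second probe set of Egln3 lies at 0.

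Over all 20 tested probe sets of the 10 genes, 1 was called higher and 4 lower, against 17.7% of the 27026 probe sets tested on the array (9.96% higher and 7.78% lower). The other 15 did not pass. With an array left out, the count of lower probe sets was 1 to 4. Another 5 probe sets, 3 of Ndrg1, 1 of Pdk1 and 1 of Adm, lay under the filter.

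The other genes of oxygen sensing were called higher at about the share of all genes. Of 20 listed genes that encode the remaining HIF subunits, the Vhl ligase and modifiers of HIF, all were tested, 2 were higher and 0 lower, beside 11.5% and 10.7% of all genes, and the median change was 0.14. Without day 4 replicate 3 the counts were 1 and 1, and 1 and 0 without either replicate 2 or without day 3 replicate 3. With array weights they were 4 and 0, beside 2163 and 2149 of all genes. Cited2, which competes with HIF for its coactivators, had means of 2018 ± 58.1 and 2576 ± 171 and rose by 0.35 ± 0.07 (adjusted p = 0.00747; 0.101 when its probe sets were averaged). Rbx1, a subunit of the Vhl ligase, rose by 0.68 ± 0.20 (adjusted p = 0.038). It did not pass when replicate 2 or 3 of either day was left out (up to 0.115).

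The closest relatives of the sensing genes did not pass. Egln2, the third hydroxylase, was at 394 ± 37.2 and 441 ± 98.1 (adjusted p = 0.536). Hif1an, which encodes the asparaginyl hydroxylase FIH, was at 248 ± 26.6 and 239 ± 30.2, and Vhl at 179 ± 17.4 and 187 ± 24.6 (adjusted p = 0.787 and 0.795). Epas1, which encodes HIF-2alpha, was at 54.0 ± 14.2 and 78.2 ± 34.9, Hif3a at 143 ± 26.6 and 153 ± 29.2, and Arnt, the common partner, at 83.2 ± 18.6 and 86.2 ± 13.7 (adjusted p = 0.295, 0.746 and 0.854). Siah2 and Usp20, which encode a ubiquitin ligase that acts on the hydroxylases and a deubiquitinase of HIF-1alpha, were higher on all day 4 arrays without passing (adjusted p = 0.0811 and 0.0564).

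Vegfa, the vascular endothelial growth factor and a classic HIF target, was the only 1 of the 10 genes called higher with all arrays at equal weight. The day 3 arrays read 42.2, 54.3 and 35.6 and the day 4 arrays 83.7, 110 and 144. All day 4 arrays were higher, and the mean went from 44.0 ± 9.47 to 113 ± 30.3, a change of 1.34 ± 0.23, or 2.54-fold (adjusted p = 0.00345). It was called in all 6 fits that left out an array, with changes of 1.15 to 1.54, and with the mean over both probe sets (a change of 0.87, adjusted p = 0.0301). The dimmer probe set 1451959_a_at was also higher on all day 4 arrays, at 21.2 to 26.0 against 15.0 to 20.5, but did not pass on its own (adjusted p = 0.375).

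Of 9 tested VEGF ligands and receptors that were not among the 10, 3 were higher and 1 lower, beside 11.5% and 10.7% of all genes (median change 0.26). Averaging probe sets gave 2 higher and 0 lower. Leaving out a day 3 array gave 2 higher, with 1 lower for replicate 1 and 0 lower for replicates 2 and 3. Leaving out day 4 replicate 1 gave 4 and 2, and day 4 replicate 2 gave 3 and 0. Kdr, the main signalling receptor of VEGF-A, was at 207, 239 and 203 at day 3 and at 603, 454 and 433 at day 4, a change of 1.19 ± 0.14 (adjusted p = 0.000522). Its days were far apart on every array. Vegfd, a ligand of the lymphatic branch, rose by 0.87 ± 0.20 (adjusted p = 0.0136; 0.0534 when its probe sets were averaged), while Vegfb and Vegfc did not pass (adjusted p = 0.247 and 0.466).

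The coreceptor Nrp1 rose by 0.49 ± 0.14 and its relative Nrp2 fell by 0.49 ± 0.14 (adjusted p = 0.0324 and 0.0352). Neither call was stable: that of Nrp1 was lost without any 1 of the day 3 arrays (adjusted p up to 0.114), and that of Nrp2 when either replicate 2, or replicate 3 of day 3, was left out (up to 0.144). Flt1, a receptor that also acts as a decoy for VEGF, was at 125 ± 7.58 and 98.3 ± 30.3 (adjusted p = 0.211), and passed as lower without day 4 replicate 1 (adjusted p = 0.0193). Beside these values, the endothelial and blood markers summed lower at day 4, the cardiac and lateral plate markers, whose precursors also express Kdr, summed higher, and neither was tested as a source of the change.

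**Figure D3:**
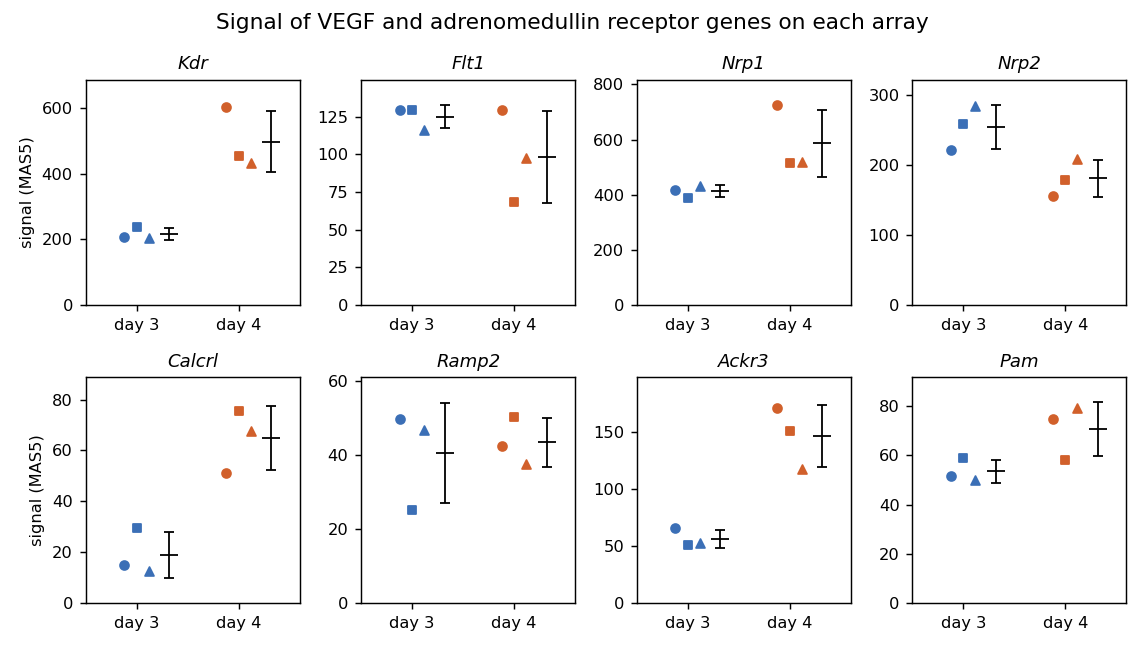
Deposited MAS5 signal (linear axis from 0) of VEGF receptors and coreceptors (top) and of genes of adrenomedullin reception and processing (bottom), by array, with symbols as for the 10 genes (circle, square and triangle for replicates 1, 2 and 3, blue for day 3, orange for day 4, black bars for the mean ± SD of 3 arrays). Kdr, Nrp1, Calcrl and Ackr3 lie higher on all day 4 arrays and Nrp2 lower.

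Adm encodes adrenomedullin, a peptide that widens vessels and is often among the genes most induced by hypoxia. It was too dim here for a direction. Its brighter probe set, 1447839_x_at, gave 38.4, 13.2 and 9.85 at day 3 and 6.87, 35.8 and 17.8 at day 4, values that straddle the filter and overlap throughout (a change of -0.06 ± 0.67, adjusted p = 0.958). With replicate 1 of day 3 left out the change was 0.52, and with that of day 4 left out it was 0.56. The other probe set, 1416077_at, lay under the filter and was not tested. It gave 28.5, 5.49 and 7.02 at day 3 and 2.00, 1.11 and 2.17 at day 4. Its days did not overlap, as for 6.89% of the probe sets under the filter in that direction, and only 1 of its values exceeded the filter.

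Among genes for receiving adrenomedullin, Calcrl, its receptor, was at 15.0, 29.4 and 12.5 at day 3 and at 51.1, 75.5 and 67.8 at day 4, a change of 1.86 ± 0.33 (adjusted p = 0.00414). Ackr3, a scavenging receptor that takes up chemokines and adrenomedullin, rose by 1.37 ± 0.18 from 56.2 ± 7.93 to 146 ± 27.1 (adjusted p = 0.000808). Both were called in every fit that left out an array. For Calcrl, the day 3 values of 15.0 and 12.5 lay close to the filter signal of 13.5. With probe sets averaged, Calcrl was not tested, and 1 of 3 tested genes of this list was higher. Ramp2, which makes Calcrl an adrenomedullin receptor, was at 40.6 ± 13.5 and 43.5 ± 6.54 (adjusted p = 0.744), and Pam, which amidates the peptide, at 53.6 ± 4.69 and 70.7 ± 11.0 (adjusted p = 0.144). Of the 7 genes of this list, 4 were tested, of which 2 were higher and 0 lower, beside 11.5% and 10.7% of all genes (median change 0.88), and Adm2, Ramp1 and Ramp3 lay under the filter.

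Pdk1 encodes a kinase that shuts pyruvate dehydrogenase and so keeps pyruvate out of the mitochondrial cycle. Its brightest probe set gave 900, 1156 and 971 at day 3 and 671, 885 and 911 at day 4. The days overlapped narrowly, and the gene did not pass (a change of -0.30 ± 0.14, adjusted p = 0.144). The probe sets 1423748_at (370 to 419 and 324 to 356) and 1435836_at (98.0 to 114 and 72.1 to 82.7) were lower on all day 4 arrays and did not pass either (adjusted p = 0.192 and 0.0799). All 3 tested probe sets of Pdk1 had a change below 0.

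Around Pdk1, 1 of 11 tested genes of the pyruvate dehydrogenase step was lower and 0 higher, beside 10.7% and 11.5% of all genes (median change -0.15). Averaging probe sets gave 3 lower and 1 higher. The gene that fell was Mpc1, a subunit of the mitochondrial pyruvate carrier, from 111 ± 5.37 to 48.7 ± 6.95 (a change of -1.19 ± 0.16, adjusted p = 0.000902). Among the other kinases, Pdk3 was lower on all day 4 arrays, at 579 ± 21.0 and 474 ± 62.3, and Pdk4 was higher on all of them, at 12.5 ± 4.79 and 22.4 ± 2.98, with neither passing (adjusted p = 0.0866 and 0.137). Pdk2 lay under the filter, and Pdhb, a subunit of the dehydrogenase, did not pass (adjusted p = 0.0856).

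Among glucose genes that HIF can induce, 7 of 15 tested, from glucose uptake to lactate export, were lower and 2 higher, beside 10.7% lower and 11.5% higher of all genes (median change -0.26). Averaging probe sets gave 6 lower and 0 higher. Leaving out an array gave 5 to 7 lower and 1 to 3 higher: 5 lower without each day 3 array, and 1 higher when replicate 2 or 3 of either day was left out. Slc2a1, the glucose transporter GLUT1, was at 3211, 3540 and 3282 at day 3 and at 1904, 2049 and 1928 at day 4, a change of -0.77 ± 0.07 (adjusted p = 0.000105). Hk2, the inducible hexokinase, fell by 1.11 ± 0.15 and Pfkl, a phosphofructokinase, by 0.47 ± 0.08 (adjusted p = 0.000832 and 0.0025), the latter with another probe set of opposite sign and not passing with their mean (adjusted p = 0.292). Ldha, which makes lactate, was lower on all day 4 arrays without passing, at 7777 ± 311 and 6492 ± 1053 (adjusted p = 0.0924). Slc16a3, which exports lactate, fell by 0.89 ± 0.23 (adjusted p = 0.0211) and did not pass without any 1 of the day 3 arrays (up to 0.0863). Aldoc, an aldolase, rose by 1.02 ± 0.13 (adjusted p = 0.000715; 0.0815 when its probe sets were averaged).

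Bnip3 encodes a mitochondrial outer membrane protein that directs mitochondria to autophagy. Its 1 probe set gave 774, 859 and 692 at day 3 and 743, 719 and 716 at day 4. The day 4 values all fell within the range of day 3, and the change was -0.09 ± 0.10 (adjusted p = 0.553). Its relative Bnip3l was not analysed here. Of 14 tested genes of mitophagy and autophagy, 2 were higher and 0 lower, beside 11.5% and 10.7% of all genes (median change 0.03). Leaving out an array gave 1 higher, except 2 without day 4 replicate 1. Averaging probe sets gave 1 higher of 13 tested. Bcl2l13, another mitophagy receptor, had means of 474 ± 4.79 and 776 ± 7.33 and rose by 0.71 ± 0.08 (adjusted p = 0.000367), although its other tested probe set had the opposite sign without passing. Gabarapl1, an ATG8 protein of the autophagosome, rose by 0.32 ± 0.09 (adjusted p = 0.0327), a call that only the fit without day 4 replicate 1 kept among those leaving out an array (adjusted p up to 0.13).

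Ndrg1 is a stress-responsive gene that hypoxia induces and MYC proteins repress. Its brightest probe set, 1456174_x_at, gave 130, 128 and 95.5 at day 3 and 127, 96.4 and 81.6 at day 4, values that overlapped (a change of -0.22 ± 0.19, adjusted p = 0.448). A second probe set, 1420760_s_at, was at 104 to 140 and 87.1 to 104, just apart and not passing (adjusted p = 0.289). By their suffixes both can also bind related transcripts. The 3 others lay under the filter. Of these, 1450976_at was lower on every day 4 array, at 2.67 to 4.32 against 11.3 to 14.3 at day 3. The days did not overlap in that direction for 6.89% of the probe sets under the filter. Of the relatives, Ndrg2, Ndrg3 and Ndrg4 did not pass (adjusted p = 0.77, 0.323 and 0.948). Mycn rose by 0.25 ± 0.06 and Myc fell by 0.43 ± 0.13 (adjusted p = 0.0169 and 0.039), and Sgk1, a kinase that phosphorylates Ndrg1, fell by 0.30 ± 0.07 (adjusted p = 0.0154). None of these 3 calls held throughout: Mycn failed when replicate 2 or 3 of either day was left out (up to 0.0796), Myc without any array but day 4 replicate 1 (up to 0.129), and Sgk1 without replicate 2 or 3 of day 3 (up to 0.0689). The list of 6 relatives and MYC genes had 1 higher and 2 lower, beside 11.5% and 10.7% of all genes. It thus had 0 called without day 3 replicate 2 or 3.

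P4ha1 and P4ha2 encode the catalytic subunits of collagen prolyl 4-hydroxylase, which gives collagen its heat-stable triple helix and, like the Egln enzymes, needs oxygen. P4ha1 gave 311, 292 and 282 at day 3 and 291, 363 and 362 at day 4. Replicate 1 of day 4 lay within the day 3 range and the other day 4 arrays above it, and the gene did not pass (a change of 0.19 ± 0.12, adjusted p = 0.275). Without day 4 replicate 1 it was called higher (a change of 0.30, adjusted p = 0.0346). With all arrays kept but weighted it was called higher too (a change of 0.30, adjusted p = 0.0222). The other probe set, 1426519_at, had a change of -0.24 ± 0.22 (adjusted p = 0.489), and with their mean the change was -0.02.

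P4ha2 had 1 probe set, at 71.7, 76.0 and 90.9 and then at 92.8, 96.6 and 85.6. The ranges overlapped, and it did not pass (a change of 0.21 ± 0.15, adjusted p = 0.341). The log2 ratio of P4ha2 to P4ha1 was -1.90 ± 0.25 at day 3 and -1.88 ± 0.22 at day 4, a difference of 0.02 (exact 2-sided permutation p = 0.8) whose sign turned with quantile normalization (-0.05) and without day 3 replicate 1 or 2 or day 4 replicate 1.

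Of 8 further tested genes of collagen modification, 2 were higher and 1 lower, beside 11.5% and 10.7% of all genes (median change -0.06). Averaging probe sets gave 1 higher and 1 lower. Leaving out an array gave 1 to 2 higher and 0 to 1 lower. P4hb, the beta subunit shared by both enzymes, was at 5008 ± 100.2 and 3913 ± 526 and fell by 0.36 ± 0.09 (adjusted p = 0.0191). Without any 1 of the day 3 arrays it did not pass (up to 0.0697). P3h2, a prolyl 3-hydroxylase, rose by 1.21 ± 0.13 (adjusted p = 0.000317). Serpinh1, the collagen chaperone HSP47, rose by 0.37 ± 0.10 (adjusted p = 0.0217), a call that only the fit without day 4 replicate 1 kept (up to 0.0848). The third alpha subunit, P4ha3, lay under the filter.

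In a wider list of HIF targets, 4 of 34 tested genes were higher and 4 lower, close to the 11.5% and 10.7% of all genes (median change -0.07; 5 and 6 without day 4 replicate 1, and 4 and 3 to 4 without any other array). Averaging probe sets left 1 higher and 2 lower of 29. The higher genes were Ppp1r3c, which promotes glycogen synthesis and rose at least 6.30-fold to 98.4 ± 10.5 (adjusted p = 0.00186), the lipoprotein receptor Vldlr, with a change of 0.85 ± 0.09 (adjusted p = 0.000241), the MYC antagonist Mxi1 and the cyclin Ccng2, whose other probe set had the opposite sign. The bound for Ppp1r3c sets its day 4 mean against the filter level, or the measured value where that was higher, on each day 3 array. The lower genes were Tfrc, the transferrin receptor, which fell by 0.96 ± 0.12 from 2713 ± 76.3 to 1410 ± 260 (adjusted p = 0.000765), Higd1a, a mitochondrial protein, which fell by 0.67 ± 0.07 (adjusted p = 0.0003), the secreted lipase inhibitor Angptl4 and the glycoprotein hormone Stc2, which did not pass without day 3 replicate 2. With the mean over their probe sets, Higd1a, Mxi1 and Ccng2 did not pass (adjusted p = 0.452, 0.394 and 0.801). Ppp1r3c and Angptl4 were then not tested. Car9, a carbonic anhydrase much used as a marker of hypoxia, and Bhlhe41 lay under the filter on average and overlapped between the days. Edn1, which encodes the vessel-constricting peptide endothelin-1, was also under the filter and not tested, but gave 28.1, 26.9 and 29.5 at day 3 and 4.79, 1.38 and 8.38 at day 4. Its days did not overlap, as for 6.89% of the probe sets under the filter in that direction. The fold, bounded in the same way, was at least 2.09-fold lower at day 4.

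**Figure D4:**
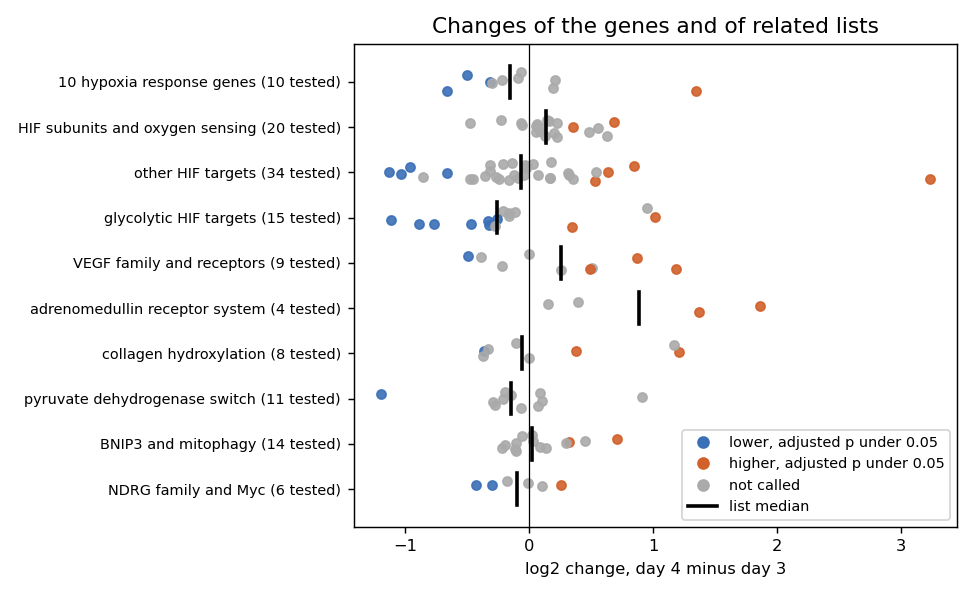
Change of every tested gene (log2, day 4 minus day 3) among the 10 hypoxia response genes and in 9 lists of related genes, with list medians as black bars; blue is lower, orange higher and grey not called. The list medians run from -0.26 for the glycolytic targets to 0.88 for the adrenomedullin receptor system, and 6 of the 10 genes sit among the grey points.

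**Figure D5:**
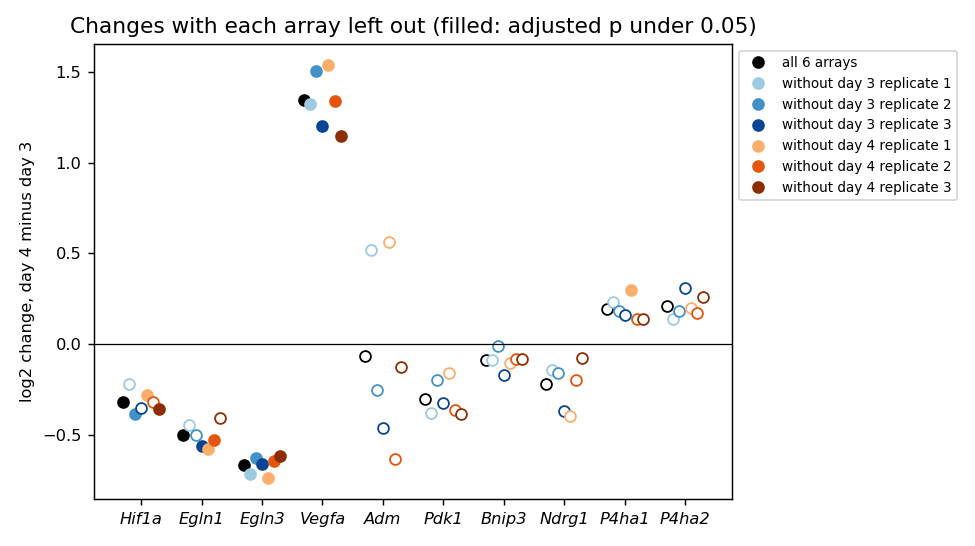
Change of each of the 10 genes (log2, day 4 minus day 3) with all 6 arrays (black) and with each array left out in turn; filled points had an adjusted p under 0.05. Vegfa and Egln3 are filled in every fit, Hif1a and Egln1 in some, P4ha1 only without day 4 replicate 1, and Adm changes sign.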

How the data were processed

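Values were the deposited signal intensities of the authors, made with MAS5, which corrects for mismatch probes and gives 1 value per probe set, per the submitters' processing notes. The sources used here give no software version, scaling target or detection calls. With the outer values trimmed (96% kept), array means were 160.4 to 162.1, so the arrays were not rescaled. RNA had been amplified in 2 rounds per the labels' protocols, which weighs signals toward 3′ ends, and the precision is limited by 3 arrays per day. Probe sets took their gene from the platform annotation (34958 had 1 symbol; 34754 matched RefSeq by Entrez identifier, and 0 symbols changed; 932 with several symbols were left unnamed, and 9211 were not listed). In R 4.3.3 with limma 3.58.1, log2 signals of each gene's brightest probe set were fitted with day as the only term (lmFit, eBayes with trend, 2-sided, Benjamini-Hochberg over 12285 genes above the 40th percentile, threshold 0.05), and likewise every probe set on its own. Dim MAS5 values scatter widely on a log scale. The model was tested on simulated arrays.

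The 10 genes and all lists were chosen with earlier results of these data known. Genes named are the 10, a set of relatives named whatever their values, and up to 4 genes of each list with the smallest p. Chosen after their values were seen were the other called genes and the genes under the filter of the wider HIF target list. So were Slc16a3, the genes under the filter of the adrenomedullin list and the cell type markers named. Alternatives were an offset of 4.14 before log2, quantile normalization, median centring, no filter or the 60th percentile, the mean over probe sets, no _x_at, _s_at or _a_at probe sets, no trend, array weights, a replicate block, a threshold of 0.10 and each array left out.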

Additional observations from a re-analysis of the deposited data

How the results depend on the processing

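Over all genes, the count of higher genes was 1411 and of lower genes 1318. It was 2163 and 2149 with array weights, and 865 higher with the mean over probe sets. Leaving out each array gave 866 to 1750 higher and 716 to 1780 lower. Of the 10 genes, 2, Vegfa and P4ha1, were higher with array weights and 1 was lower with the mean over probe sets. Leaving out each array gave 1 to 2 higher and 1 to 3 lower, and 1 to 2 probe sets higher and 1 to 4 lower. Vegfa was called under all alternatives run, and Egln3 under all but the mean over probe sets. Hif1a was also lost with no filter (adjusted p = 0.0626) and without trend (adjusted p = 0.124). Signs turned for P4ha1 with the mean over probe sets (-0.023), for Adm with array weights (0.88) and without day 3 replicate 1 or day 4 replicate 1 (0.52 and 0.56, in both fits), for the Egln3 to Egln1 ratio with the mean over probe sets (0.22), and for the P4ha2 to P4ha1 ratio with quantile normalization (-0.049). Leaving out each array gave -0.097 to 0.15 for the latter, -0.27 to -0.096 for the former and -0.63 to 0.56 for Adm. The change of 1418648_at of Egln3, 0.00, was -0.050 with quantile normalization, -0.028 with centring and -0.18 to 0.27 with an array left out. The cause was not tested. With the replicate number as a replicate block, the same 4 genes were called (1 higher and 3 lower), and 1486 and 1398 of all genes; on its own, the brightest Hif1a probe set then did not pass (adjusted p = 0.0553). The deviations of same-numbered arrays correlated by 0.07, 0.01 and -0.00, so the numbers were not taken as pairs. Adm could not be fitted with the 60th percentile filter or the mean over probe sets, nor Adm and Ndrg1 without suffixed probe sets. Signals near the filter limit what can be said of Adm and of 5 probe sets.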
